A study of Mus musculus with 6 samples.

Results

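The genes described here encode the proteins of the carnitine shuttle and of fatty acid oxidation. They are 41 genes chosen by symbol, for proteins that take up and bind fatty acids, pass them into mitochondria as carnitine esters, and oxidize them in mitochondria or peroxisomes. Each of the 41 symbols matched 1 of the 52636 rows of the count table, and 39 of the 41 were abundant enough to be tested. RNA was measured in embryoid bodies (EBs), aggregates in which embryonic stem (ES) cells begin to differentiate, with 3 WT and 3 Tnfaip2-/- samples. The WT EBs were grown from the parental mouse line E14, and the Tnfaip2-/- EBs from 1 clone of this line in which genome editing had left a premature stop codon in exon 2 of Tnfaip2. Cells of both genotypes formed EBs in hanging drops for 3 days (labelled as 300 cells in 30 µl, while the methods of the paper give other values) in ES cell medium; the EBs were then plated on gelatin and kept for 3 days in MEF medium. As each genotype is 1 line, genotype and other properties of the clone cannot be told apart, and the p-values measure the spread between cultures, which may be technical in part.

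Total counts per sample lay between 21765931 (Tnfaip2-/- replicate 2) and 23804489 (WT replicate 3). Levels are given as counts per 1000000 counts (CPM) after normalization for library size, and 3 counts, taken as the floor of detection, correspond to 0.128 to 0.137 CPM. Tnfaip2, the gene targeted in the clone, had 7, 4 and 7 counts in WT, and in the Tnfaip2-/- samples 0, 2 and 2. Every Tnfaip2-/- sample was below every WT sample, but the gene was near the floor in both genotypes and was not tested.

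Fatty acids are activated to acyl-CoA esters, which cannot cross the inner mitochondrial membrane. CPT1 enzymes of the outer membrane transfer the acyl group to carnitine, the translocase encoded by Slc25a20 exchanges acylcarnitine for carnitine, and CPT2 restores acyl-CoA inside, where repeated dehydrogenation, hydration, a second oxidation and thiolysis release acetyl-CoA. Peroxisomes shorten very long and branched chains, and the entry of fatty acids at CPT1 is inhibited by malonyl-CoA, the substrate of fatty acid synthesis.

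Of the 39 members tested, 32 (82.1%) differed between the genotypes at an adjusted p below 0.05 (edgeR's quasi-likelihood test with Benjamini-Hochberg adjustment over all genes tested), against 67.7% of the 17849 genes tested. The called members were divided evenly, with 16 higher and 16 lower in Tnfaip2-/- EBs, where 34% of all genes tested were higher and 33.7% lower. In a test against a fold change of 1.5 rather than against no change, 8 members passed (20.5%), 4 in each direction, against 15.7% of all genes tested. The samples of the 2 genotypes did not overlap for 33 members, against 69.4% of all genes tested. The median log2 fold change (log2FC) was -0.02 over the members and 0.00 over all genes tested, and the median size of the change, sign aside, was 0.32 and 0.30. The members were more abundant than most genes, with a median of 28.3 CPM against 14.9 CPM; among the 4226 genes tested between 14.4 and 46.2 CPM, the middle range of the members, 74.2% were called and 11.9% were past 1.5-fold. The list as a whole was not tested, and in these bulk samples fewer cells of a type and less RNA per cell cannot be told apart.

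**Figure D1:**
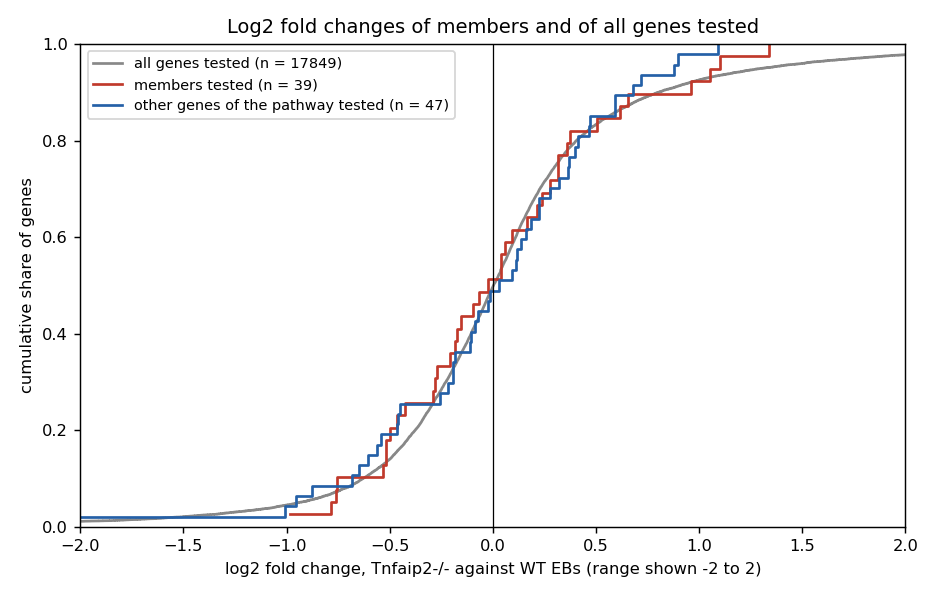
Cumulative share of genes (vertical axis) by log2FC of Tnfaip2-/- against WT EBs (horizontal axis, shown from -2 to 2) for the 39 members tested, the 47 other genes of the pathway tested and all 17849 genes tested. The 3 curves cross 0 close to the same height, with medians of -0.02, 0.03 and 0.00.

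Summed over all 41 members, the samples held 1460, 1469 and 1468 CPM in the WT EBs and 1446, 1455 and 1461 CPM in the Tnfaip2-/- EBs. The sums of the genotypes thus differed by less than 1%, and their ranges overlapped, while single steps moved in opposite directions. The sum of the 3 electron transfer genes was 1.38 times and that of the 3 carnitine supply genes 1.37 times the WT mean in Tnfaip2-/- EBs. The sum of the 3 acyl-CoA thioesterases was 0.807 times the WT mean, that of the genes of hydration, second oxidation and thiolysis 0.867 times, and that of the acyl-CoA dehydrogenases 0.883 times. Smaller differences were found for the carnitine shuttle (1.07 times), the auxiliaries of unsaturated chains (0.904 times) and the peroxisomal genes (1.09 times). The samples of the genotypes lay apart for each of these 8 steps and overlapped for uptake and binding. A sum follows its most abundant genes and covers the members alone, and no test was made of the sums. In the wider list described below, Aldh9a1, an enzyme of carnitine synthesis named after its values were seen, stood at 144.9 against 136.4 CPM (log2FC -0.09, adjusted p = 0.00921). This was above the sum of the 3 supply members and in the other direction. Of 6 further thioesterases tested, 4 were higher (66.7%, against 34% of all genes tested). The sums of the supply genes and of the thioesterases therefore do not describe all genes of their steps.

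**Figure D2:**
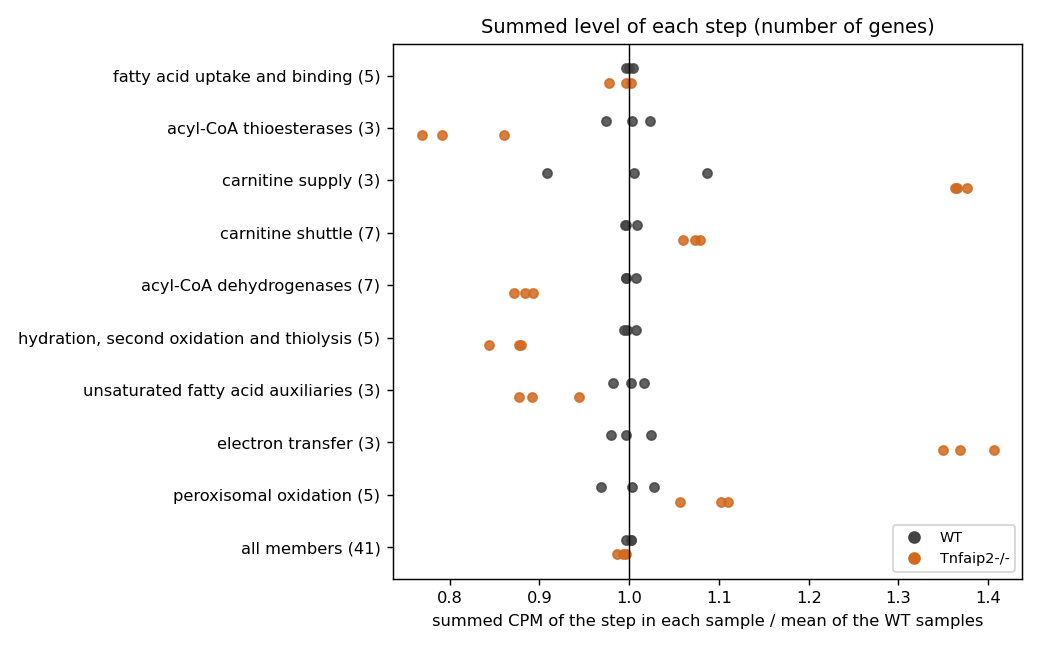
Summed CPM of each step in each sample, divided by the mean of the WT samples (horizontal axis), with the number of genes of each step in parentheses; each point is 1 sample, grey for WT and orange for Tnfaip2-/-. Electron transfer, carnitine supply and, by less, the shuttle and the peroxisomal genes lie to the right of the WT samples, and the thioesterases, dehydrogenases, hydration to thiolysis genes and auxiliaries to the left, while uptake and the sums over all 41 members overlap.

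Among the 5 genes of fatty acid uptake and binding, 2 were higher, 2 lower and 1 was too low to test (34% higher and 33.7% lower among all genes tested). Fabp5, which encodes the epidermal-type cytosolic fatty acid binding protein, was the most abundant of this step by CPM in WT EBs. It stood at 80.3, 80.4 and 81.4 CPM in the WT samples and at 48.5, 46.6 and 47.9 CPM in the Tnfaip2-/- samples. In Tnfaip2-/- EBs the means of Fabp3 (57.6 CPM) and Slc27a4 (49.1 CPM) were above that of Fabp5 (47.65 CPM). For Fabp5, all Tnfaip2-/- samples were well below the WT samples, and the spread within a genotype was under 1 CPM (SD, n = 3). The log2FC was -0.76 (standard error, SE, 0.0376, adjusted p = 1.16e-22), past the test against 1.5-fold (adjusted p = 2.8e-05). Fabp3, the heart-type binding protein, moved the other way, with 36.0, 37.4 and 36.4 CPM in WT and 56.7, 59.4 and 56.7 CPM in Tnfaip2-/- samples. Its groups did not overlap, and its log2FC of 0.65 (adjusted p = 2.41e-18) did not pass the test against 1.5-fold (adjusted p = 0.0952), except under upper quartile normalization (adjusted p = 0.0267). Of the 51-base windows in the exons of Fabp3, the length of the reads, 36.9% also occur in other genes, among them the pseudogene Fabp3-ps1, whose log2FC was 0.60, and Zcchc17 and Gm10570, which overlap 19.6% of its exon bases on the opposite strand, where reads cannot be separated without the strand. Slc27a4, which encodes the fatty acid transport protein FATP4 with acyl-CoA synthetase activity, rose by 0.61 on the log2 scale (adjusted p = 1.17e-16), from 32.1 ± 0.535 to 49.1 ± 1.08 CPM (SD, n = 3). Slc27a1, the gene of the related protein FATP1, fell by 0.27 on the log2 scale, from 37.1 ± 1.98 to 30.7 ± 1.54 CPM (adjusted p = 6.54e-06). The 2 transport proteins and the 2 binding proteins therefore each had 1 gene higher and 1 lower, so that the summed level of the step, 186.5 ± 0.763 CPM in WT and 185.1 ± 2.39 CPM in Tnfaip2-/- EBs, hardly moved. Cd36, the scavenger receptor that takes up long-chain fatty acids, had 3, 0 and 2 counts in WT, and in Tnfaip2-/- samples 0, 0 and 1. These counts are at or under the floor, and a difference in Cd36 was not detectable at this depth.

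Acyl-CoA thioesterases release free fatty acids from acyl-CoA and so work against activation. Acot1, the cytosolic one and the most abundant of the 3 members by CPM, stood at 26.6, 29.0 and 29.8 CPM in WT and at 19.8, 19.4 and 20.4 CPM in Tnfaip2-/- samples. The genotypes did not overlap, and the log2FC was -0.52 (adjusted p = 5.06e-11). Acot2, its mitochondrial relative and neighbour on chromosome 12, also had a log2FC of -0.52, at a lower level of 7.17 ± 0.632 against 4.99 ± 0.499 CPM (adjusted p = 3.86e-05). Of the windows of Acot1 19%, and of those of Acot2 27.4%, also occur in other genes, each of the 2 in the other; unique reads cannot come from these windows. Acot8, the peroxisomal thioesterase, was higher, with a log2FC of 0.31 (adjusted p = 0.00206), and this call was lost without Tnfaip2-/- replicate 3 (log2FC 0.19, adjusted p = 0.0749).

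Carnitine is imported by OCTN2, the product of Slc22a5, or made from trimethyllysine by a pathway that starts with Tmlhe and ends with Bbox1. Slc22a5 stood at 10.5, 9.82 and 8.94 CPM in WT samples and at 12.8, 12.5 and 12.5 CPM in Tnfaip2-/- samples. All Tnfaip2-/- samples exceeded all WT samples, and the log2FC was 0.37 (adjusted p = 5.11e-05). Tmlhe had 18, 13 and 11 counts in WT, and in Tnfaip2-/- samples 31, 35 and 38. The counts were low but the genotypes lay apart, and the log2FC of 1.34 (95% confidence interval 0.83 to 1.84, adjusted p = 8.73e-06) was the largest increase among the members tested. It passed the test against 1.5-fold with edgeR (adjusted p = 0.00416) but not with DESeq2 (adjusted p = 0.272), where the fold change was nearly the same, 1.34. Bbox1, the hydroxylase of the last step, had 0 counts in all 6 samples. With Bbox1 below the floor of 3 counts in each sample, the levels of the 2 synthetic enzymes allow no statement on whether the pathway was complete in these cells.

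The carnitine shuttle held 3 of the 8 members past 1.5-fold, in opposite directions. Cpt1a encodes the liver form of CPT1, which is also the form of most tissues other than muscle. It had 1602, 1559 and 1676 counts (70.7, 69.6 and 71.3 CPM) in the WT samples and 815, 767 and 800 counts (35.9, 35.0 and 36.1 CPM) in the Tnfaip2-/- samples. The values within each genotype lay close together, and the mean of the Tnfaip2-/- EBs was 0.505 times that of WT. The log2FC was -0.98 (95% confidence interval -1.07 to -0.90, adjusted p = 1.08e-25), the largest decrease among the members tested, and it ranged from -1.0 to -0.96 over all 13 alternative settings. The gene lies on the forward strand at chr19:3322334-3385733 of GRCm38, and its exons share 0.786% of their 51-base windows with other genes.

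The study also measured Cpt1a by RT-qPCR, and the primers are shown because they mark which part of the transcript that assay reads. Both match transcripts of Cpt1a alone, in 4 of which they delimit a product of 100 bp, which lies in coding sequence of the transcript described here. The forward primer lies in exon 2 at chr19:3349262-3349280, and the reverse primer spans the junction of exons 2 and 3, with 2 bases in exon 2, in capitals, and 19 in exon 3 (exons numbered in the transcript of 19 exons).
Cpt1a forward: ctccgcctgagccatgaag
Cpt1a reverse: caccagtgatgatgccattCT
The counts cover all exons of the gene, so that they need not equal the abundance of the transcripts that hold this junction.

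Cpt1c, the brain form of the CPT1 family, which is found at the endoplasmic reticulum and has little transferase activity, changed about as much as Cpt1a in the other direction. It stood at 30.0, 30.6 and 27.8 CPM in WT and at 61.0, 60.7 and 61.8 CPM in Tnfaip2-/- samples. No sample of a genotype came near the range of the other, and the log2FC was 1.05 (95% confidence interval 0.96 to 1.14, adjusted p = 2.49e-25). Slc25a20, the carnitine-acylcarnitine translocase, stood at 23.0, 22.5 and 24 CPM in WT and at 49.5, 48.9 and 50.6 CPM in Tnfaip2-/- samples. Its Tnfaip2-/- samples were again all above the WT samples, with a log2FC of 1.10 (95% confidence interval 1.0 to 1.2, adjusted p = 7.83e-25). Cpt1b, the muscle form of CPT1, had 10, 7 and 12 counts in WT and 12, 11 and 6 counts in Tnfaip2-/- samples. The samples of the genotypes were intermixed, and the log2FC of 0.04 had a confidence interval from -0.72 to 0.80, which holds a change of 1.5-fold in either direction, so that such a change was not detectable at this depth. Of its exon bases, 81.4% overlap a readthrough gene on the same strand, Gm44502. That gene has no row in the count table, and whether the overlap bears on the counts of Cpt1b was not tested. The other members of this step fell by small amounts: Crat, the carnitine acetyltransferase, by 0.21 (adjusted p = 0.00599), Cpt2, the transferase of the inner membrane, by 0.18 (adjusted p = 0.00176), and Crot, the peroxisomal octanoyltransferase, by 0.15 on the log2 scale (adjusted p = 0.00756). For these 3 genes the genotypes did not overlap, and the differences were 10.2% to 13.5% of the WT mean.

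**Figure D3:**
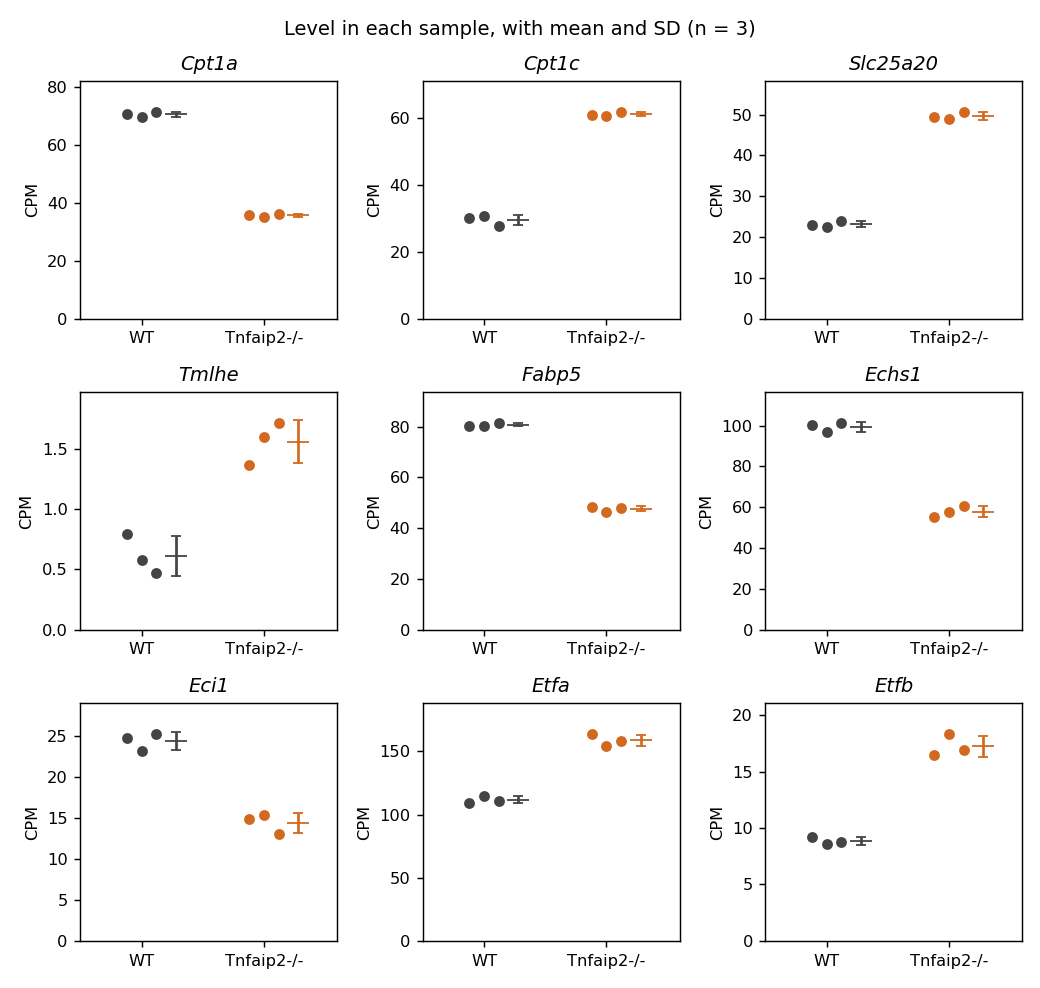
Level in CPM (vertical axes, starting at 0) of 9 members in each WT (grey) and Tnfaip2-/- (orange) sample, with the mean and SD of the 3 samples beside the points. The 2 genotypes do not overlap in any panel; Cpt1a, Fabp5, Echs1 and Eci1 are lower in Tnfaip2-/- EBs, and Cpt1c, Slc25a20, Tmlhe, Etfa and Etfb are higher.

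As the CPT1 forms differ in exon length, their levels were compared per kb of exon, as ratios chosen after the values were seen and described without a test. The ratio of Cpt1a to Cpt1c was 1.73, 1.67 and 1.88 in the WT samples and 0.432, 0.423 and 0.428 in the Tnfaip2-/- samples. On this scale, which rests on the union of all annotated exons, Cpt1a was above Cpt1c in every WT sample and below it in every Tnfaip2-/- sample. Relative to the translocase, Cpt1a fell from 1.93 ± 0.0415 to 0.455 ± 0.00391 (SD, n = 3, ratio of CPM per kb), with no overlap. Relative to Cpt2 it fell from 0.703 ± 0.0356 to 0.403 ± 0.0169, again without overlap of the genotypes.

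The 3 shuttle genes past 1.5-fold have promoters in the RefSeq table used here, which holds promoters of 33 of the 41 members; the other 8 are Acaa2, Acad9, Cpt1b, Crat, Decr1, Fabp5, Hsd17b4 and Tmlhe. Nuclear receptors that control genes of fatty acid oxidation bind repeats of the hexamer AGGTCA, and the 250 bases before each start were searched for it on both strands. The hexamer occurs in 14% of the 32817 promoters, and in those of 6 of the 33 members: Acadm, Acadvl, Cd36, Cpt1a, Cpt1c and Echs1. The direct repeat with 1 base between the hexamers, AGGTCANAGGTCA, occurs in 0.0335% of all promoters and in none of these members, and the extended hexamer TCAAGGTCA in 0.387% and in none of them; both contain AGGTCA, so that the 3 searches overlap. The sequences before the start (GRCm38.p6, in the direction of transcription) are shown for genes that moved in opposite directions, Cpt1a at chr19:3323051-3323284 on the forward strand, Cpt1c at chr7:44974852-44975101 on the reverse strand and Slc25a20 at chr9:108661886-108662087 on the forward strand, with the hexamer or its reverse complement in capitals.
Cpt1a: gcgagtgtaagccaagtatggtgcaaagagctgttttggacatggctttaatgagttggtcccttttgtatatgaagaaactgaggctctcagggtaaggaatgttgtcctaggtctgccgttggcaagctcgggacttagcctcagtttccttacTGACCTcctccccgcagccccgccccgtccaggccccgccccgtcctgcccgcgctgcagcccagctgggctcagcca
Cpt1c: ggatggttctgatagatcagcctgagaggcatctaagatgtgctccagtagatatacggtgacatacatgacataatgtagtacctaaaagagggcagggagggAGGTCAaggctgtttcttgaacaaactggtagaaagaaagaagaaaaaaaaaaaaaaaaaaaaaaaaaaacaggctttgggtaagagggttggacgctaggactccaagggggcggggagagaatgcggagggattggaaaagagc
Slc25a20: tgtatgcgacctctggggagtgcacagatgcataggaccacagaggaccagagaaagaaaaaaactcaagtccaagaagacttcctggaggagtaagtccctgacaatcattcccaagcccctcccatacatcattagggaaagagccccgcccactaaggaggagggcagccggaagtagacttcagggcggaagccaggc
The RefSeq start of Cpt1a used here lies inside the gene as placed above, downstream of its first annotated base, and so does the sequence shown. For Cpt1a and Slc25a20, the last 16 and 48 of the 250 bases are left out, as they lie in an annotated exon. In Cpt1a the hexamer lies on the reverse strand 88 bases before the start, and in Cpt1c on the forward strand 140 bases before it. Both genes hold 1 hexamer, and Slc25a20 holds none in this window. A match describes the letters of the sequence and was not tested as a site of binding, and its relation to the changes in level was not tested.

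Among the 7 acyl-CoA dehydrogenases, which carry out the first oxidation of each cycle, 2 were higher, 3 lower and 2 not called (34% higher and 33.7% lower among all genes tested). None of the 7 was past 1.5-fold (15.7% of all genes tested). Acadm, the medium-chain enzyme, was the most abundant by CPM, with 55.6, 56.1 and 57.5 CPM in WT and 60.3, 59.9 and 60.0 CPM in Tnfaip2-/- samples. The genotypes did not overlap, but the difference was 6.54% of the WT mean (log2FC 0.09, adjusted p = 0.0329). This call did not hold in DESeq2 (adjusted p = 0.111), without the expression filter (0.129) or with the replicate block (0.0599). It also did not hold without WT replicate 1 (0.154) or 2 (0.0858) or Tnfaip2-/- replicate 1 (0.0724), 2 (0.0575) or 3 (0.0988). The log2FC values in these settings were 0.07 to 0.09. Acadl, the long-chain enzyme, had the largest change of this step, from 52.0 ± 1.30 to 35.9 ± 0.897 CPM (log2FC -0.53, adjusted p = 5.5e-15). Acads, the short-chain enzyme, fell by 0.43 (adjusted p = 5.36e-11) and Acad9, which is also an assembly factor of respiratory complex I, by 0.29 on the log2 scale (adjusted p = 6.4e-06). Acadvl, the very long-chain enzyme, was higher by 0.36 (adjusted p = 9.06e-05). Since 42.9% of its exon bases overlap Dvl2 on the opposite strand and the libraries do not keep the strand, its reads cannot be fully separated from those of Dvl2, whose log2FC was -0.10. Acad10 and Acad11, family members of less defined function, had log2FC values of 0.06 and 0.04 and overlapping samples (adjusted p = 0.429 and 0.715).

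The remaining reactions of the cycle hydrate the enoyl-CoA, oxidize it again and release acetyl-CoA. Hadh, the short-chain 3-hydroxyacyl-CoA dehydrogenase, was the most abundant member by CPM, with 164.2, 161.2 and 162.6 CPM in WT and 172.7, 188.9 and 186.3 CPM in Tnfaip2-/- samples. The Tnfaip2-/- samples were all higher but spread more than the WT samples (SD 8.72 against 1.48 CPM, n = 3), and the log2FC was 0.17 (adjusted p = 4.01e-06). Echs1, the short-chain enoyl-CoA hydratase, stood at 100.5, 96.6 and 101.2 CPM in WT and at 55.2, 57.6 and 60.5 CPM in Tnfaip2-/- samples. All Tnfaip2-/- samples were below the WT samples, and Echs1 was past 1.5-fold with a log2FC of -0.78 (SE 0.037, adjusted p = 1.85e-23). Hadha and Hadhb encode the alpha and beta subunits of the mitochondrial trifunctional protein, which acts on long chains, and lie next to each other in opposite orientation on chromosome 5. Hadha fell from 80.8 ± 2.18 to 57.1 ± 0.709 CPM (log2FC -0.50, adjusted p = 2.05e-16), and Hadhb from 55.6 ± 1.09 to 40.3 ± 1.75 CPM (log2FC -0.46, adjusted p = 2.74e-13). The ratio of Hadha to Hadhb per kb was 1.09, 1.12 and 1.08 in WT and 1.03, 1.09 and 1.11 in Tnfaip2-/- samples. These ratios overlapped, while the level of each subunit fell. In Hadhb, 19.6% of the windows also occur in other genes, mainly pseudogenes. Acaa2, the mitochondrial 3-ketoacyl-CoA thiolase, was higher by 0.21 on the log2 scale (adjusted p = 0.00043), with 25.8 ± 0.399 against 30.0 ± 1.5 CPM.

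Unsaturated chains need further enzymes that shift or reduce double bonds. Eci1, the mitochondrial enoyl-CoA isomerase, stood at 24.7, 23.1 and 25.1 CPM in WT and at 14.8, 15.3 and 13 CPM in Tnfaip2-/- samples. The genotypes were well apart, with a log2FC of -0.76 (SE 0.0646, adjusted p = 2.44e-14). Eci1 passed the test against 1.5-fold (adjusted p = 0.0089), but not without Tnfaip2-/- replicate 3 (log2FC -0.70, adjusted p = 0.0993) nor in DESeq2 (log2FC -0.76, adjusted p = 0.323), so that the call against 1.5-fold depends on 1 sample and on the tool, while the log2FC of the 2 tools was the same to 2 decimals. Eci2, the isomerase found in peroxisomes and mitochondria, was higher, from 21.8 ± 0.533 to 26.5 ± 2.01 CPM (log2FC 0.28, adjusted p = 4.59e-05). Decr1, the mitochondrial 2,4-dienoyl-CoA reductase and the most abundant of the 3 by CPM, stood at 27.5, 30.9 and 28.9 CPM in WT and at 28.4, 27.6 and 25.7 CPM in Tnfaip2-/- samples. Its samples overlapped (log2FC -0.10, adjusted p = 0.116), and it was called only without WT replicate 1 (log2FC -0.14, adjusted p = 0.0352).

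Electrons from the acyl-CoA dehydrogenases pass to the electron transfer flavoprotein, a dimer of the products of Etfa and Etfb, and from there through the product of Etfdh to ubiquinone. Etfa stood at 109.4, 114.9 and 111.0 CPM in WT and at 163.5, 154.5 and 158.2 CPM in Tnfaip2-/- samples. All Tnfaip2-/- samples exceeded the WT samples, with a log2FC of 0.51 (SE 0.0307, adjusted p = 2.14e-19). Etfb stood at 9.22, 8.62 and 8.72 CPM in WT and at 16.5, 18.3 and 16.9 CPM in Tnfaip2-/- samples. It was the one of the pair past 1.5-fold, with a log2FC of 0.96 (95% confidence interval 0.81 to 1.11, adjusted p = 1.15e-15). Of the exon bases of Etfb, 58.2% overlap other annotated genes on the same strand, mainly Gm45233, which had 0 counts in every sample. How reads within 2 genes were counted is not given in the sources used here for these EBs, and the level of Etfb relative to Etfa may be too low for this reason; the overlap is the same in all samples. With that limit, the ratio of Etfa to Etfb per kb was 7.52, 8.45 and 8.07 in WT and 6.28, 5.35 and 5.92 in Tnfaip2-/- samples. The ratios did not overlap; this ratio was likewise chosen after the values were seen, and a difference between the 2 increases was not tested. Etfdh was not called, with 25.9 ± 0.839 against 25.5 ± 0.50 CPM, and its confidence interval from -0.13 to 0.09 on the log2 scale does not reach a change of the size seen in Etfa.

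Of the 5 peroxisomal members, 2 were higher, 1 lower and 2 not called (34% higher and 33.7% lower among all genes tested). Hsd17b4, the D-bifunctional enzyme and the most abundant of them, stood at 72.5, 73.1 and 68.2 CPM in WT and at 85.9, 89.0 and 91.4 CPM in Tnfaip2-/- samples. The samples did not overlap, and the log2FC was 0.32 (adjusted p = 1.4e-10). Acaa1a, the peroxisomal thiolase, was higher by 0.24 (adjusted p = 1.7e-05), with 16.8% of its windows shared, mostly with its paralogue Acaa1b. Abcd3, the membrane transporter PMP70, fell by 0.28 on the log2 scale (adjusted p = 1.05e-06), from 47.4 ± 3.01 to 39.0 ± 1.57 CPM. Ehhadh, the L-bifunctional enzyme, had 75, 67 and 69 counts in WT and 56, 72 and 68 counts in Tnfaip2-/- samples. The samples of Ehhadh were intermixed (log2FC -0.07, adjusted p = 0.692). Acox3, an oxidase for branched chains, had a log2FC of -0.17 that did not pass (adjusted p = 0.157), although every Tnfaip2-/- sample, at 4.87 to 5.5 CPM, was below every WT sample, at 5.56 to 6.26 CPM.

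**Figure D4:**
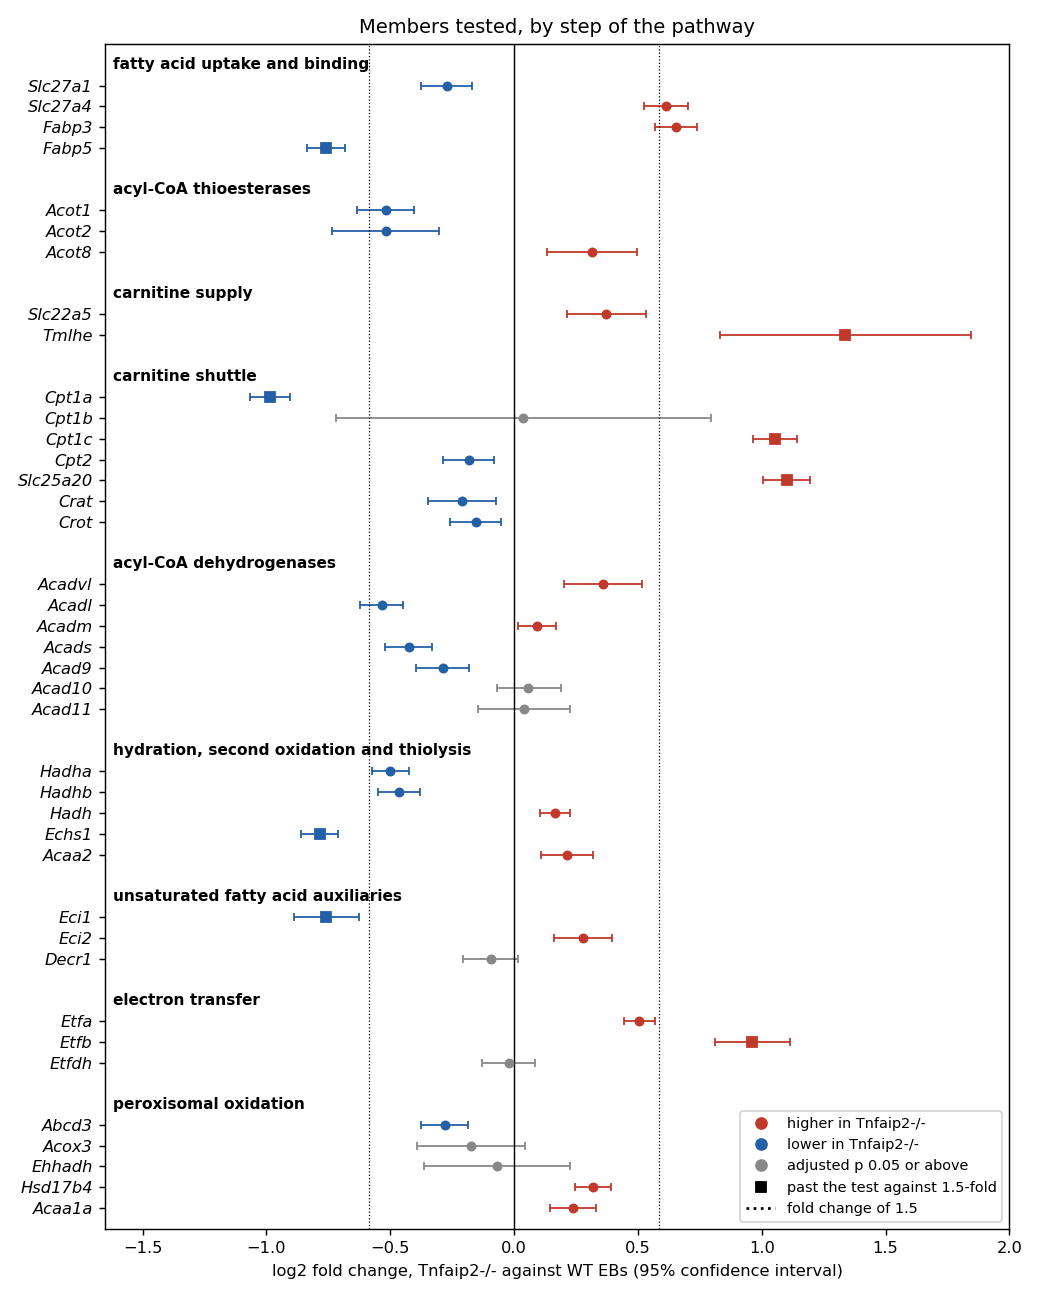
Log2FC of Tnfaip2-/- against WT EBs with its 95% confidence interval (horizontal axis) for the 39 members tested, by step; red is higher, blue lower and grey not called, squares are past the test against 1.5-fold and dotted lines mark that fold. Of the 8 squares, 4 lie on each side, and both directions occur in the uptake, thioesterase, shuttle, dehydrogenase, hydration to thiolysis, auxiliary and peroxisomal steps.

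Compared per kb of exon, Etfa was the most abundant member in both genotypes (60.9 ± 1.53 CPM per kb in WT and 86.5 ± 2.48 CPM per kb in Tnfaip2-/- EBs), followed by Fabp3 and Hadh in both. The exon lengths are the union of all annotated exons of a gene, 8.73 kb for Hadha and 1.835 kb for Etfa. Such a length can exceed that of the transcripts present in the cells. It also includes windows shared with other genes, 36.9% of those of Fabp3 and 2.77% of those of Etfa. The order of genes on this scale, with that of Etfa and Fabp3, may depend on both. Below Hadh the order changed. Cpt1a was at rank 14 of 41 in WT and at rank 27 in Tnfaip2-/- EBs, from 9.23 ± 0.113 to 4.67 ± 0.0731 CPM per kb. In WT EBs the values of Cpt1a and Hadha, at 9.26 ± 0.250 CPM per kb, lay within the spread between samples. That spread leaves out the uncertainty of the lengths. Cpt1c moved from rank 24 to rank 13, Slc25a20 from rank 25 to rank 14, and Etfb from rank 16 to rank 8. With the same limit, Cpt1c (10.9 ± 0.106 CPM per kb) and Slc25a20 (10.3 ± 0.182 CPM per kb) were next to each other in Tnfaip2-/- EBs and close to Cpt2 (11.6 ± 0.335 CPM per kb). At the low end, Ehhadh, Acad11, Acox3, Tmlhe, Cpt1b, Cd36 and Bbox1 held the last 7 ranks in both genotypes, all at 1.03 CPM per kb or less.

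**Figure D5:**
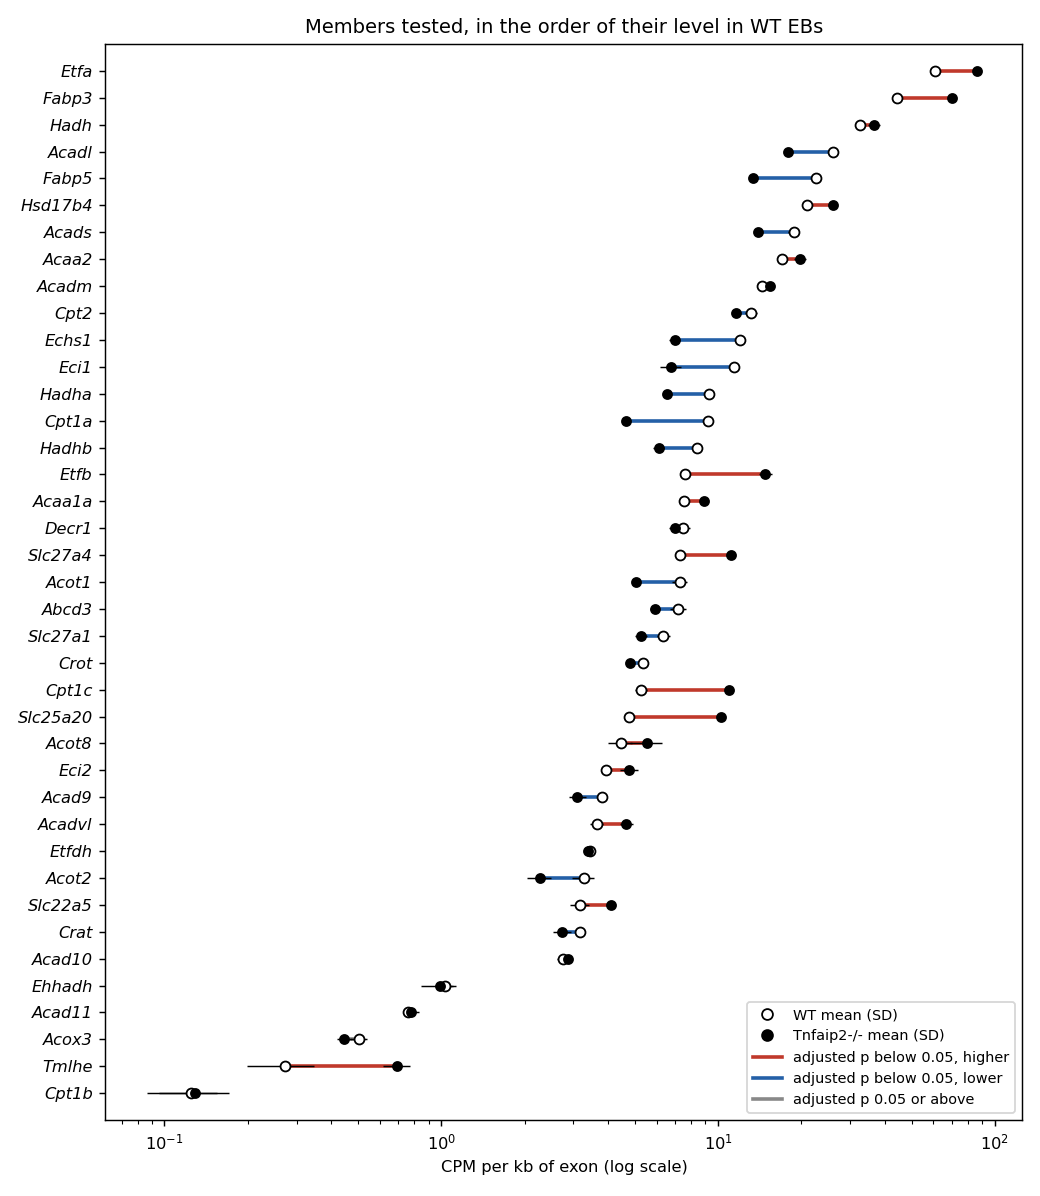
Level of the 39 members tested in CPM per kb of exon (horizontal axis, log scale), in the order of the WT mean; open circles are WT and filled circles Tnfaip2-/- EBs (mean and SD, n = 3), joined by a line coloured by the call. The long lines belong to Cpt1a, Cpt1c, Slc25a20, Etfb and, at a low level, Tmlhe.

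A wider list of 58 other genes of fatty acid activation, transport, peroxisomal oxidation, malonyl-CoA control, propionyl-CoA and ketone body metabolism was examined in the same way. Of the 47 tested, 38 were called (80.9%, against 67.7% of all genes tested), 20 higher (42.6% against 34%) and 18 lower (38.3% against 33.7%), and 5 were past 1.5-fold (10.6% against 15.7%); the median log2FC was 0.03. Large increases (log2FC) among genes that averaged 1 CPM or more were in Acot11, a thioesterase (0.88, adjusted p = 1.58e-06), Slc22a21, a carnitine transporter (0.72, adjusted p = 8.86e-07), Mlycd, malonyl-CoA decarboxylase (0.68, adjusted p = 9.48e-11), and Hacl1, an enzyme of alpha-oxidation (0.59, adjusted p = 8.98e-10). Of the windows of Slc22a5, 25.8% also occur in other genes, Slc22a21 among them. Among genes that averaged 1 CPM or more, the 5 largest decreases were in genes of ketone body, amino acid and propionyl-CoA metabolism and of activation. Below 1 CPM, Fabp7, a binding protein named after its values were seen, had 30, 28 and 38 counts in WT and 2, 1 and 4 counts in Tnfaip2-/- samples (log2FC -3.67, adjusted p = 2.03e-11). Oxct1, which activates ketone bodies for use, stood at 93.6, 90.1 and 95.9 CPM in WT and at 45.1, 46.8 and 47.2 CPM in Tnfaip2-/- samples. Its genotypes lay far apart, at a log2FC of -1.01 (adjusted p = 3.24e-27). Pcca, a subunit of propionyl-CoA carboxylase, had a log2FC of -0.88 (adjusted p = 3.7e-18), Bdh1, the ketone body enzyme 3-hydroxybutyrate dehydrogenase, of -0.69 (adjusted p = 6.14e-13), Acsl6, an acyl-CoA synthetase, of -0.61 (adjusted p = 3e-05), and Ivd, isovaleryl-CoA dehydrogenase, of -0.56 (adjusted p = 2.68e-13). In each of these named genes, which were picked for large changes, the samples of the genotypes did not overlap. The same held for 69.4% of all genes tested. By step, the genes higher and lower among those tested were 6 and 5 of 12 for activation, transport and binding, 1 and 2 of 3 for malonyl-CoA control, 1 and 1 of 2 for carnitine supply, 0 and 3 of 5 for mitochondrial acyl-CoA oxidation, 7 and 1 of 11 for peroxisomal oxidation, 4 and 1 of 6 for thioesterases, and 1 and 5 of 8 for propionyl-CoA and ketone body metabolism, against 34% higher and 33.7% lower of all genes tested.

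Markers of cell types differed between the genotypes as well. Among all genes tested, 34% were higher and 33.7% lower, and for 69.4% the samples of the genotypes did not overlap. The 7 pluripotency markers, led by Dppa5a, summed to 3376, 3325 and 3395 CPM in WT and to 2521, 2530 and 2501 CPM in Tnfaip2-/- samples; 5 were lower, among them Pou5f1, and Sox2 and Nanog were higher. All 5 primitive streak markers were lower, with sums of 87.1, 87.2 and 86.3 CPM in WT and 20.5, 18 and 21.6 CPM in Tnfaip2-/- samples; T led in WT (34.6 CPM) and Eomes in Tnfaip2-/- EBs (18.5 CPM). Of 4 neural ectoderm markers, 3 were tested and all 3 were lower, led by Sox1, with sums of 87.9, 86.1 and 82.1 CPM against 31.2, 31.0 and 29.5 CPM; Neurog2 had 1 count in all. Of 10 markers of primitive and visceral endoderm, 6 were lower and 2 higher, with sums of 47.4, 50.5 and 46.2 CPM against 31.4, 32.9 and 32.8 CPM; Amn led in WT (10.8 CPM) and Gata4 in Tnfaip2-/- EBs (8.53 CPM). Of 5 markers of cardiac and skeletal muscle, Myh6 led and was the one tested; it was higher, and the list summed to 2.65, 2.72 and 2.64 CPM against 4.8, 5.21 and 4.96 CPM. Of 6 fibroblast markers, 1 of the 3 tested was lower (Col1a2), with sums of 8.12, 9.07 and 8.13 CPM against 5.76, 6.25 and 6.85 CPM, led by Thy1; Lum and Postn were at 0 in all Tnfaip2-/- samples. The 4 adipocyte markers, led by Cidea, and the 5 blood and macrophage markers were not tested, with sums of 0.397, 0.670 and 0.553 CPM against 1.14, 0.594 and 0.766 CPM for the former and sums of at most 0.0893 CPM for the latter, among which Ptprc and Lyz2 were at 0 in all WT samples and Hba-x and Hbb-bh1 in all Tnfaip2-/- samples. The samples of the genotypes overlapped in the sums of these last 2 lists and lay apart in the sums of the other 6, as they did for Cpt1a, Cpt1c and Slc25a20; the part of cell types in the result was not tested.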

How the data were processed

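RNA of 6 EB samples was sequenced (TruSeq RNA v2 libraries, which do not keep the strand). The authors filtered the reads, mapped them to GRCm38 and counted unique reads per Ensembl gene; the counts deposited by the authors are not normalized. The submitters' processing notes name TopHat2 2.1.0 and featureCounts 1.5.0. Samples were grouped by the genotype in their labels. The analysis used edgeR 4.0.16 in R 4.3.3, with the default expression filter (minimum count 10, minimum total 15), TMM normalization, the robust quasi-likelihood F test and Benjamini-Hochberg adjustment (threshold 0.05). The filter left 17849 of 30163 genes that had a count. The test against a fold change of 1.5 was edgeR's glmTreat. The 5 ratios between members are not in the plan; they were chosen after the values were seen, and their exact permutation p-values, which cannot be below 0.1 for 3 samples against 3, are not used. The procedure was tested on simulated data.

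Exon lengths (the union of all exons of a gene), positions and shared 51-base windows came from the GENCODE annotation of GRCm38, and promoters from RefSeq (GRCm38.p6). Values in every sample are given for Cpt1a, Tnfaip2, members past 1.5-fold or below the filter and the most abundant member of each step; of the wider list, the 5 largest increases and decreases at a mean of at least 1 CPM are named, except 1 gene that is not reported here. Values in every sample of Cpt1b, Ehhadh, Fabp3 and Oxct1, the ratios, the motifs and the range of 14.4 to 46.2 CPM were chosen after values had been seen. The members and lists were chosen with earlier results of these data known. The alternatives were 2 other normalizations, no filter or a stricter one (1 CPM in 3 samples), DESeq2 1.42.0, the legacy fit, the replicate block and leaving out each sample in turn.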

Additional observations from a re-analysis of the deposited data

How the results depend on the processing

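Over 13 alternative settings, 30 to 32 members were called, 14 to 16 higher and 16 to 17 lower, and 6 to 9 were past 1.5-fold; the numbers over all genes tested were between 10506 and 12676, and 33 to 38 genes of the wider list were called. Of the 39 members tested, 32 had the same direction and the same call in all settings that tested them. The median log2 fold change of the members was 0.003 with upper quartile normalization, which shifted all genes by 0.0258, in place of -0.022, and without 1 sample it ranged from -0.076 to -0.024. Etfdh was at 0.003 with upper quartile normalization. Without 1 sample, Cpt1b ranged from -0.138 to 0.272, Ehhadh from -0.155 to 0.043 and Acad11 from -0.005 to 0.074. These 4 genes, which changed sign, were called in no setting; beyond the shift and the smaller number of samples, the cause was not tested. Of 506 alternative values of single members, 9 were no longer past the threshold (Acadm and Acot8) and 1 came past it (Decr1).

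Deviations of same-numbered samples correlated at -0.068, -0.062 and -0.069 over 15711 genes, so that no pairing by replicate number was visible in the levels. Whether same-numbered samples were cultured or processed together is not given in the labels. With the replicate block, 31 members (15 higher, 16 lower) and 11841 of all genes were called, and the member that lost its call was Acadm (log2 fold change 0.091, adjusted p = 0.0599). Depth limits what can be said of Tnfaip2, Cd36, Bbox1, Cpt1b and Tmlhe, which had at most 38 counts in any sample.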
